A study of Mus musculus with 2 samples.

Results

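Complement transcripts were described across the cell classes of mouse hippocampus through 9 genes: C1qa, C1qb, C1qc, C3, C4b, C3ar1, C5ar1, Itgam and Serping1. The members were taken by symbol from the 32285 genes of the deposited matrices, all 9 were found, and each was followed in every cell class of both libraries. Non-immune cells that also held many transcripts of microglia were treated apart. The tissue came from mice 4 weeks of age that carried the L389P substitution in Crlf3, a gene for a cytokine receptor-like factor, and from wild-type mice of the same age. For each genotype 4 hippocampi were pooled into 1 library. The labels name no treatment, and name 4 mice without making clear whether these were all mice or those of 1 genotype. Both pools went through the same dissociation, debris and myelin removal and sorting of live cells after 7-AAD staining. Because a pool is 1 sample, no difference between genotypes could be tested. The intervals below are exact 95% intervals that cover counting error only and say nothing of the spread between cells or between mice. The values are counts of unique molecular identifiers (UMIs), each standing for 1 captured transcript read from its 5′ end, so levels do not scale with transcript length.

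Complement is a cascade of plasma and tissue proteins in which C1q, assembled from the A, B and C chains, recognises a target and starts the classical pathway. C4 and then C3 are cleaved and deposited on the target, and the fragments C3a and C5a signal through receptors while deposited C3 fragments are bound by phagocytes through complement receptor 3. In the developing brain the classical pathway is known for tagging synapses that microglia then engulf, and C1 inhibitor, encoded by Serping1, blocks the C1 proteases at the first step.

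C1qb, C1qc and C1qa lay beside each other on the minus strand of chromosome 4 within 18.675 kb of the mouse assembly GRCm38, at 136880129 to 136886187, 136889804 to 136893065 and 136895917 to 136898803. Promoters from RefSeq (GRCm38.p6), from 250 bases before to 50 bases after the gene start, were matched for 6 of the 9 members. Those of C1qb, C1qc and Itgam are shown because these were the 3 that held the letters GAGGAA, the core bound by the myeloid factor PU.1, on one strand or the other (in capitals, with TTCCTC as its reverse complement).
C1qb, chr4:136886151-136886450, minus strand: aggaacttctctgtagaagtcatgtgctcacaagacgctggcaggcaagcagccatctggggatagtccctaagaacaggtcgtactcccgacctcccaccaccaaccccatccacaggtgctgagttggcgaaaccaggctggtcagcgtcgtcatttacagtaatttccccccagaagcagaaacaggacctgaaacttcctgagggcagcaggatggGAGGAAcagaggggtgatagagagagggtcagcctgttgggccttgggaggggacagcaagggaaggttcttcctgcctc
C1qc, chr4:136892865-136893164, minus strand: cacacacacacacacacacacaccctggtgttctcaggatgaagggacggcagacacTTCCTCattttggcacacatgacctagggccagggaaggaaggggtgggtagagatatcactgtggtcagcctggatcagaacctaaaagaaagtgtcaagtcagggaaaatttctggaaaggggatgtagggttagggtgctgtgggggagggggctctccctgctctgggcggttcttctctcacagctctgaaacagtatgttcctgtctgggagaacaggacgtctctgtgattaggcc
Itgam, chr7:128062390-128062689, plus strand: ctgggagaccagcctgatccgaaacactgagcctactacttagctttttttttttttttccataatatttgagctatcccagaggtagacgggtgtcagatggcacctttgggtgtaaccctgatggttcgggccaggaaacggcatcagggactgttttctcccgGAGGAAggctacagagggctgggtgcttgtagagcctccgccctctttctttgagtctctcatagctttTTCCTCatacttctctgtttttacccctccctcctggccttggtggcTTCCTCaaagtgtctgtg
GAGGAA on either strand occurred 1 time in the C1qb promoter, 1 time in the C1qc promoter and 3 times in the Itgam promoter, and not in these windows of C3, C3ar1 and C5ar1. Of all 32851 promoters of the same 300 bases, 28.3% held it, so a match describes these letters and not binding.

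The Crlf3-mutant library held 43103469 UMIs in 5720 barcodes and the wild-type library 51328178 UMIs in 7713 barcodes. After filtering and doublet removal 5275 Crlf3-mutant and 7109 wild-type cells remained, with median depths of 7385 and 6193 UMIs. Of all barcodes, 64 occurred in both libraries. The counts carry no base calls, so the L389P change itself could not be read from them. Clusters were made without the 9 members and were named from marker genes as microglia-like, border macrophage-like and so on; the suffix is dropped hereafter. The labels do not give the sex of the mice, and both pools mixed sexes: of microglia, 42.6% of Crlf3-mutant and 45.5% of wild-type cells had Xist and no Y-linked transcript, and 33.5% and 27.8% the reverse. Microglia made up 2977 (56.4%) of the Crlf3-mutant cells and 4142 (58.3%) of the wild-type cells, and UMIs of all 10 of their markers were present in both libraries. A further cluster of 268 Crlf3-mutant and 290 wild-type cells had UMIs of all 10 microglial markers but was led by Nrgn and Camk2a, genes known from excitatory neurons, and stayed unnamed.

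C1q transcripts belonged mainly to microglia in both libraries and stood at nearly the same level in both. C1qa, the A chain (ENSMUSG00000036887), had 6846 CPM (UMIs of the gene per 1000000 UMIs of the class) in Crlf3-mutant microglia and 6948 CPM in wild-type microglia. C1qb, the B chain (ENSMUSG00000036905), had 7778 CPM in Crlf3-mutant and 7809 CPM in wild-type microglia. C1qc, the C chain (ENSMUSG00000036896), had 6393 CPM in Crlf3-mutant and 6564 CPM in wild-type microglia. The order of the chains was the same in both libraries, B above A above C. Summed, the 3 chains had 21017 CPM in Crlf3-mutant and 21320 CPM in wild-type microglia, a ratio of 0.986 (0.982 to 0.990). The side of 1 on which this ratio lay depended on the cells used: among cells with Y-linked transcripts and no Xist it was 1.01.

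All 2977 Crlf3-mutant microglia and 4141 of 4142 wild-type microglia had at least 1 C1q UMI. The median cell held 157 C1q UMIs in the Crlf3-mutant library and 132 in the wild-type library, where the median depths of microglia were 7566 and 6193 UMIs. C1qa, C1qb and C1qc made up 32.6%, 37.0% and 30.4% of C1q UMIs in Crlf3-mutant microglia, and 32.6%, 36.6% and 30.8% in wild-type microglia. Across single microglia the log-scaled levels of each pair of chains correlated with Pearson's r between 0.58 and 0.61 in the Crlf3-mutant library and between 0.59 and 0.60 in the wild-type library (2977 and 4142 cells that share a library). Microglia held 88.1% of all C1q UMIs of the Crlf3-mutant library and 88.4% of those of the wild-type library, and the Nrgn-led cluster a further 9.43% and 7.67%.

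Border macrophages, the macrophages of meninges and perivascular spaces, carried about as much C1q as microglia although they had far fewer transcripts of homeostatic microglia genes. Their C1q level was 21261 CPM in 22 Crlf3-mutant cells and 22379 CPM in 68 wild-type cells, which is 1.01 times (0.973 to 1.05) and 1.05 times (1.03 to 1.07) the level in microglia of the same library. A list of 13 homeostatic microglia genes had 0.238 times and 0.257 times the microglial level there. Per UMI of that list, border macrophages held 2.67 C1q UMIs in the Crlf3-mutant and 2.63 in the wild-type library, and microglia 0.629 and 0.644.

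**Figure D1:**
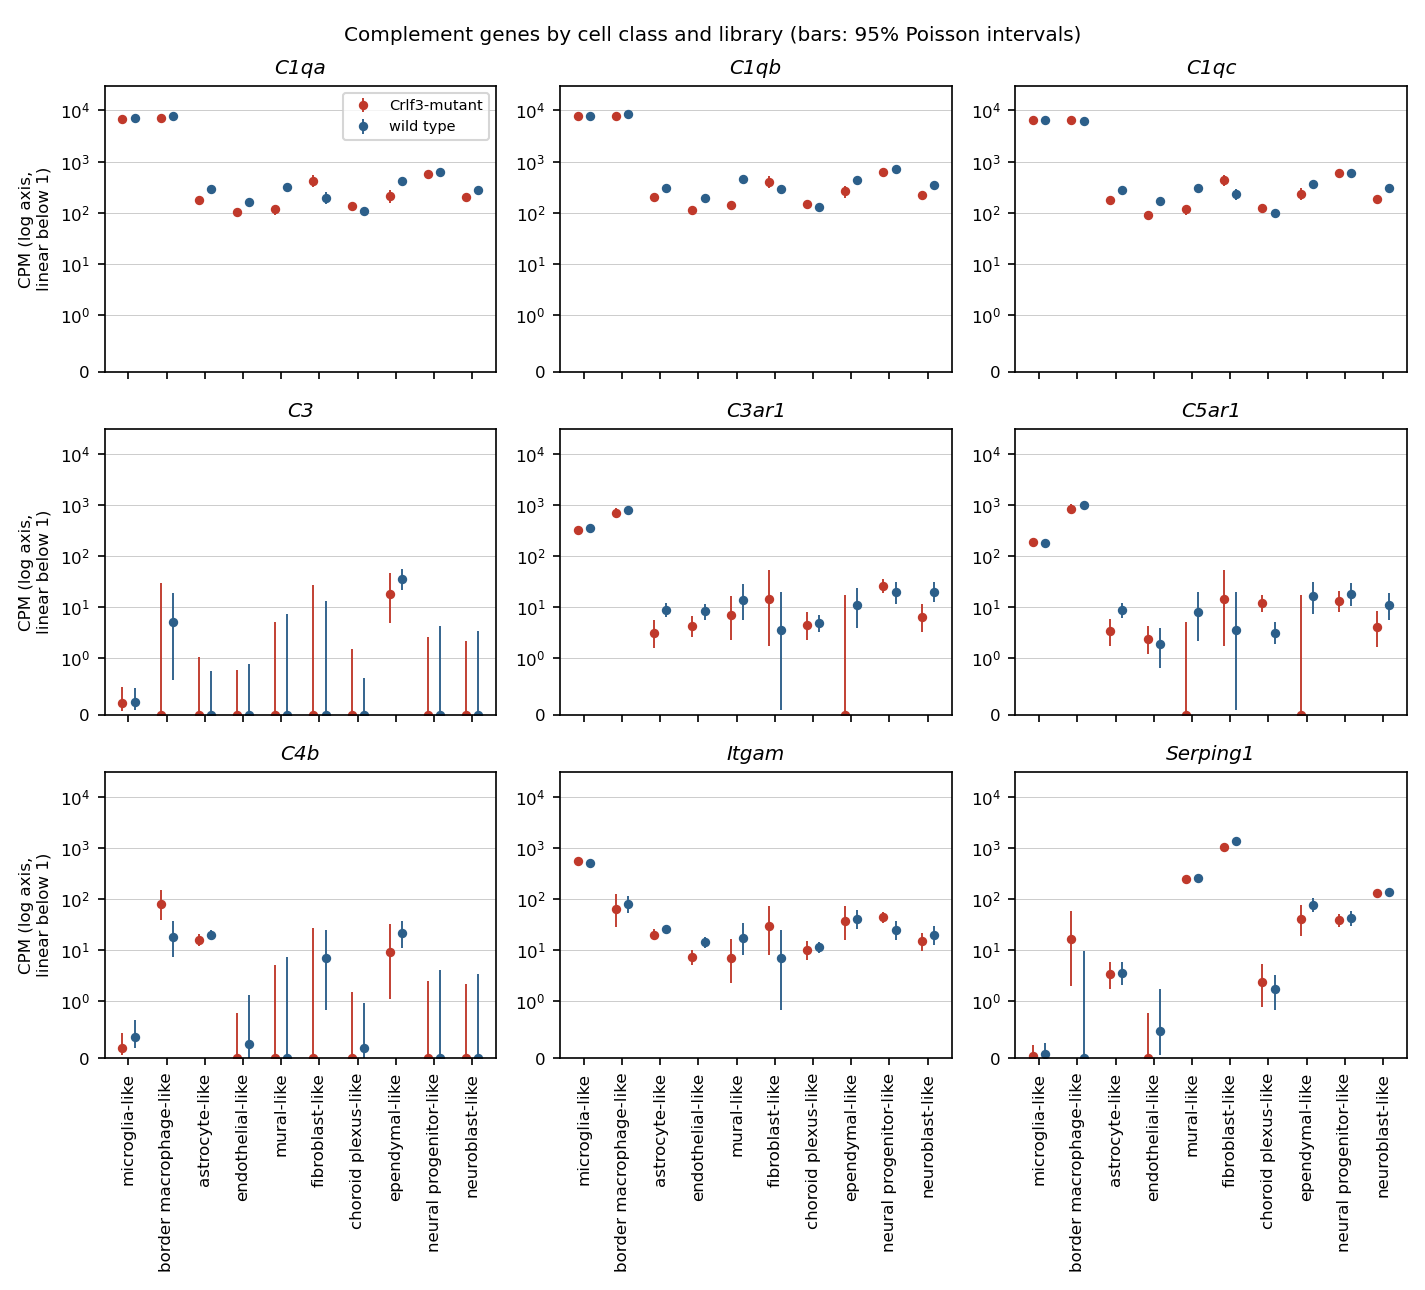
CPM of complement genes in each cell class (log axis, linear below 1) in the Crlf3-mutant and the wild-type library, with bars for 95% Poisson intervals. C1qa, C1qb and C1qc lie above the other members in microglia and border macrophages of both libraries, C4b lies at 15.9 and 19.9 CPM in astrocytes, and Serping1 is highest in fibroblasts, at 1062 and 1335 CPM.

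Microglia were not uniform in C1q. Of the 6 named clusters with at least 20 cells in each library, the one led by Rgs1 and the heat shock gene Hspa1b (270 Crlf3-mutant and 661 wild-type cells) had the most C1q in both libraries, 23992 CPM in the Crlf3-mutant and 26640 CPM in the wild-type library. The Rrad-led cluster had the least, 20357 CPM and 19872 CPM. The highest level was 1.18 times the lowest in the Crlf3-mutant library and 1.34 times in the wild-type library. The clusters differed in depth. Of the 6, the Rgs1-led cluster was the shallowest, at medians of 4524 UMIs in Crlf3-mutant and 4112 UMIs in wild-type cells. The Cxcl10-led cluster was the deepest, at 9595 and 8827 UMIs. Cluster levels at matched depth were not computed, and the part of depth in the order of clusters was not tested. The Rgs1-led cluster made up 9.07% of Crlf3-mutant and 16.0% of wild-type microglia. It also had the ratio between libraries farthest from 1, 0.901 (0.889 to 0.913), and the 3 chains lay between 0.889 and 0.909 there. C1q was slightly higher in Crlf3-mutant cells of the Rrad-led cluster, at a ratio of 1.02 (1.02 to 1.03), and of the Ccl4-led cluster, at 1.02 (1.01 to 1.03). The homeostatic microglia genes stood at a ratio of 0.950 (0.940 to 0.960) in the Rgs1-led cluster. They stood at 1.04 in the Rrad-led and in the Ccl4-led cluster.

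C3, the central component that both the classical and the alternative pathway cleave (ENSMUSG00000024164, chromosome 17, 57203970 to 57228136), was close to undetected in this tissue. It totalled 35 UMIs in the Crlf3-mutant and 33 UMIs in the wild-type library. In microglia there were 5 C3 UMIs among 2977 Crlf3-mutant cells and 6 among 4142 wild-type cells. Astrocytes, endothelial cells, mural cells and choroid plexus cells held none in either library, which in astrocytes allows up to 0.850 CPM in the Crlf3-mutant and 0.634 CPM in the wild-type library by the limit of 3 counts.

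The few C3 transcripts lay in small classes. An unnamed cluster led by the neutrophil genes S100a9 and S100a8 held 26 C3 UMIs in 5 of 17 Crlf3-mutant cells. It held 5 UMIs in 3 of 16 wild-type cells, and the levels were 246 CPM and 54.6 CPM. The best marker score of this cluster was for monocytes, with 6 of 6 monocyte markers detected. Its values therefore cannot be given to neutrophils alone. In that cluster 11 of the 26 Crlf3-mutant UMIs came from 1 cell. Ependymal cells, the ciliated lining of the ventricles, held 4 UMIs among 22 Crlf3-mutant cells and 20 UMIs among 55 wild-type cells, or 18.2 CPM and 35.7 CPM. Neither class had the 100 cells a library set as the minimum for a comparison.

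C4b, the component cleaved by activated C1 (ENSMUSG00000073418, chromosome 17, 34728380 to 34743882), had most of its UMIs in astrocytes, at a low level. It totalled 81 UMIs in the Crlf3-mutant and 141 UMIs in the wild-type library, of which astrocytes held 56 (69.1%) and 94 (66.7%). Its level in astrocytes was 15.9 CPM in the Crlf3-mutant and 19.9 CPM in the wild-type library, and the interval of the ratio, 0.563 to 1.12 around 0.799, spans 1. Without the astrocytes holding microglial transcripts, described below, the level was 15.2 CPM and 20.4 CPM. A C4b UMI was found in 8.84% of Crlf3-mutant and 8.49% of wild-type astrocytes, and in 3.16% and 3.69% once each cell was thinned to 2000 UMIs. Endothelial cells, taken as a class that should lack the gene, had one in 0 of 810 and 1 of 824 cells. Their median depths were 5273 and 4559 UMIs, and those of astrocytes 7521 and 6004 UMIs.

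Away from astrocytes, C4b counts were few. A cluster led by Fabp7, a gene of radial glia and astrocytes, held 8 UMIs (27.3 CPM) in the Crlf3-mutant and 11 UMIs (26.8 CPM) in the wild-type library. Border macrophages held 10 UMIs (81.3 CPM) among 22 Crlf3-mutant cells and 7 (18.0 CPM) among 68 wild-type cells, and ependymal cells 2 and 12 UMIs. Among the 8 non-immune classes the highest C4b level in the Crlf3-mutant library was that of astrocytes, 15.9 CPM. In the wild-type library it was that of the 55 ependymal cells, 21.4 CPM, and 16.4% of these had a C4b UMI. C4a, a close copy of C4b, lies on the same chromosome at 34809092 to 34823464, so transcripts of the pair may not have been fully told apart.

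The receptors for the fragments C3a and C5a were microglial and macrophage transcripts with a different spread from C1q. C3ar1, the C3a receptor (ENSMUSG00000040552, chromosome 6, 122847138 to 122856161), had 315 CPM in Crlf3-mutant and 343 CPM in wild-type microglia, from 7363 and 9326 UMIs. The ratio was 0.920 (0.892 to 0.948), but 0.985 (0.928 to 1.04) at 2000 UMIs a cell, where the interval spans 1. C5ar1, the C5a receptor (ENSMUSG00000049130, chromosome 7, 16246743 to 16259540), had 183 CPM in Crlf3-mutant and 178 CPM in wild-type microglia, a ratio of 1.03 (0.987 to 1.07). Itgam, the alpha chain of complement receptor 3 also known as CD11b (ENSMUSG00000030786, chromosome 7, 128062640 to 128118491), had 552 CPM in Crlf3-mutant and 517 CPM in wild-type microglia, a ratio of 1.07 (1.04 to 1.09).

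A member was counted as measured in a class at 50 CPM and 30 UMIs or more in the higher library, and as apart between the libraries at 1.5 times or more. In microglia 6 of the 9 members were measured and 0 were 1.5 times apart, where 0.123% of 3249 measured genes were. The median log2 ratio of Crlf3-mutant over wild type was −0.01 over these 6 members and 0.01 over all measured genes. In the Nrgn-led cluster the same 6 members were measured and 0 were apart, against 0.571% of its genes. With 1 library a genotype these counts describe the pools.

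C3ar1 had a UMI in 75.0% of Crlf3-mutant and 73.4% of wild-type microglia, C5ar1 in 49.1% and 45.3%, and Itgam in 93.1% and 89.5%. In endothelial cells, which should lack all 3, the shares were 1.23% and 1.94% for C3ar1, 0.864% and 0.728% for C5ar1, and 1.48% and 3.16% for Itgam. The Crlf3-mutant microglia were deeper, and at 2000 UMIs a cell the microglial shares were 43.2% and 44.2% for C3ar1, 24.5% and 24.5% for C5ar1, and 64.5% and 61.2% for Itgam. The share with C3ar1 changed order with depth, the shares with C5ar1 came level, and that with Itgam stayed higher in the Crlf3-mutant library. The 10% of microglia richest in C5ar1 held 52.2% of its UMIs in the Crlf3-mutant and 52.0% in the wild-type library. For C1qa, which nearly every microglial cell carried, the richest 10% held 19.7% and 19.4%.

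Both fragment receptors were highest in the cluster led by Cxcl10 and Il1b, but not raised alike in the other chemokine-led cluster. In the Cxcl10-led cluster C3ar1 had 485 CPM in the Crlf3-mutant and 470 CPM in the wild-type library, and C5ar1 308 CPM and 280 CPM. In the cluster led by Ccl4 and Ccl3, C3ar1 had 304 CPM and 350 CPM, and C5ar1 176 CPM and 160 CPM. The Rrad-led cluster was close to that, with 297 CPM and 332 CPM of C3ar1, and 165 CPM and 173 CPM of C5ar1. In the Rgs1-led cluster, richest in C1q, C3ar1 had 193 CPM and 221 CPM, and C5ar1 117 CPM and 108 CPM. The highest C3ar1 level among clusters was 2.51 times the lowest in the Crlf3-mutant and 2.13 times in the wild-type library. For C5ar1 it was 5.73 times and 2.60 times. The lowest C5ar1 level was that of the Ifit3-led cluster in the Crlf3-mutant library, 53.8 CPM from 12 UMIs in 25 cells. In the wild-type library it was that of the Rgs1-led cluster, and the Ifit3-led cluster had 143 CPM. Itgam ran the other way, with its lowest named cluster the Cxcl10-led one at 480 CPM and 470 CPM, and its highest the Rgs1-led one at 660 CPM and 598 CPM.

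Between the libraries, at unmatched depth, C3ar1 was lower in the Crlf3-mutant cells of 5 of the 6 clusters and slightly higher in those of the Cxcl10-led cluster. Crlf3-mutant cells had the higher median depth in each of these clusters, and no cluster ratio was computed at matched depth. Over all microglia the C3ar1 ratio was 0.985 (0.928 to 1.04) at 2000 UMIs a cell. The cluster ratios were 0.855 (0.791 to 0.924) in the Tmem119-led cluster, 0.869 (0.808 to 0.934) in the Ccl4-led cluster and 0.893 (0.844 to 0.944) in the Rrad-led cluster. In the Rgs1-led cluster the ratio was 0.876 with an interval that spans 1 (0.754 to 1.02). In the Cxcl10-led cluster it was 1.03 (0.974 to 1.09). The smallest cluster, led by the interferon gene Ifit3, had 52 C3ar1 UMIs in 25 Crlf3-mutant cells and 96 in 42 wild-type cells, a ratio of 0.662 (0.463 to 0.937). Within single microglia C3ar1 and C5ar1 correlated with r of 0.21 in the Crlf3-mutant and 0.16 in the wild-type library, too weak in sparse counts to be read as a relation.

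**Figure D2:**
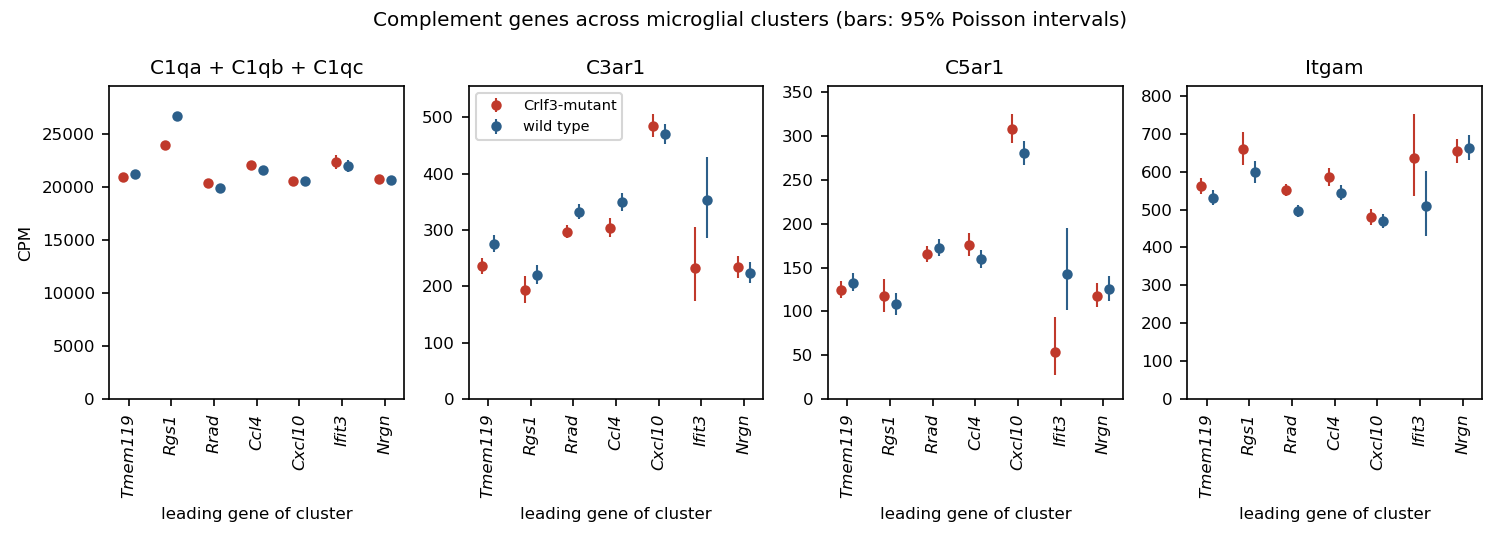
CPM of the summed C1q chains, C3ar1, C5ar1 and Itgam in microglial clusters named by their leading gene and in the unnamed Nrgn-led cluster at the right, in the Crlf3-mutant and the wild-type library, with bars for 95% Poisson intervals and axes from 0. The Rgs1-led cluster is highest for C1q, and the Cxcl10-led cluster is highest for C3ar1, at 485 and 470 CPM, and for C5ar1, at 308 and 280 CPM.

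Border macrophages had more of both fragment receptors than microglia and less Itgam. C3ar1 had 683 CPM in Crlf3-mutant and 782 CPM in wild-type border macrophages, which is 2.16 times (1.72 to 2.68) and 2.28 times (2.03 to 2.55) the microglial level. C5ar1 had 837 CPM and 969 CPM, or 4.58 times (3.73 to 5.56) and 5.45 times (4.89 to 6.05) that of microglia. Itgam had 65.0 CPM and 79.7 CPM, or 0.118 times and 0.154 times the microglial level, from 8 and 31 UMIs. Both libraries gave the same order for each receptor. The S100a9-led cluster also carried the receptors, with 341 CPM of C5ar1 in the Crlf3-mutant and 546 CPM in the wild-type library, and 331 CPM and 229 CPM of Itgam.

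Outside immune cells the receptors were near background. Among 8 non-immune classes, Itgam lay between 6.95 and 44.6 CPM in the Crlf3-mutant and between 6.97 and 41.0 CPM in the wild-type library. Without the cells that held many microglial transcripts its highest class level was 2.39 CPM and 5.96 CPM. In choroid plexus cells 23 of 29 Crlf3-mutant C5ar1 UMIs and 13 of 18 wild-type C5ar1 UMIs came from 1 cell in each library.

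C1q transcripts in non-immune cells sat in few cells that also held microglial transcripts. The 8 non-immune classes comprised 1900 Crlf3-mutant and 2467 wild-type cells. Of these, 56 Crlf3-mutant cells (2.95%) and 86 wild-type cells (3.49%) held at least 50 UMIs of the 13 homeostatic microglia genes. These few cells held 8165 of 8620 C1q UMIs (94.7%) in the Crlf3-mutant and 11551 of 12368 (93.4%) in the wild-type library. Between 20 and 49 such UMIs were found in 2 Crlf3-mutant and 6 wild-type cells, so few cells lay near the limit. In the holding cells the lowest C1q count was 36 in the Crlf3-mutant and 52 in the wild-type library. The remaining cells held at most 25 and 40.

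Over all holding cells there were 0.564 C1q UMIs per homeostatic UMI in the Crlf3-mutant and 0.623 in the wild-type holding cells, against 0.629 and 0.644 in microglia. The 8 classes spanned 0.499 to 0.708 in the Crlf3-mutant and 0.570 to 0.755 in the wild-type library. The cells under 50 microglial UMIs had 0.288 and 0.344; holding cells were chosen on the homeostatic UMIs, so this contrast is a description. Holding astrocytes had median depths of 16696 and 11798 UMIs, and the remaining astrocytes 7461 and 5885 UMIs. Holding cells were not deeper in every class: among neural progenitors they had 14090 and 16057 UMIs, and the remaining cells 16562 and 12256 UMIs. Among cells under 50 microglial UMIs, 17.6% of Crlf3-mutant and 23.5% of wild-type cells had a C1q UMI, mostly 1 or 2 (16.3% and 22.3% of cells).

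**Figure D3:**
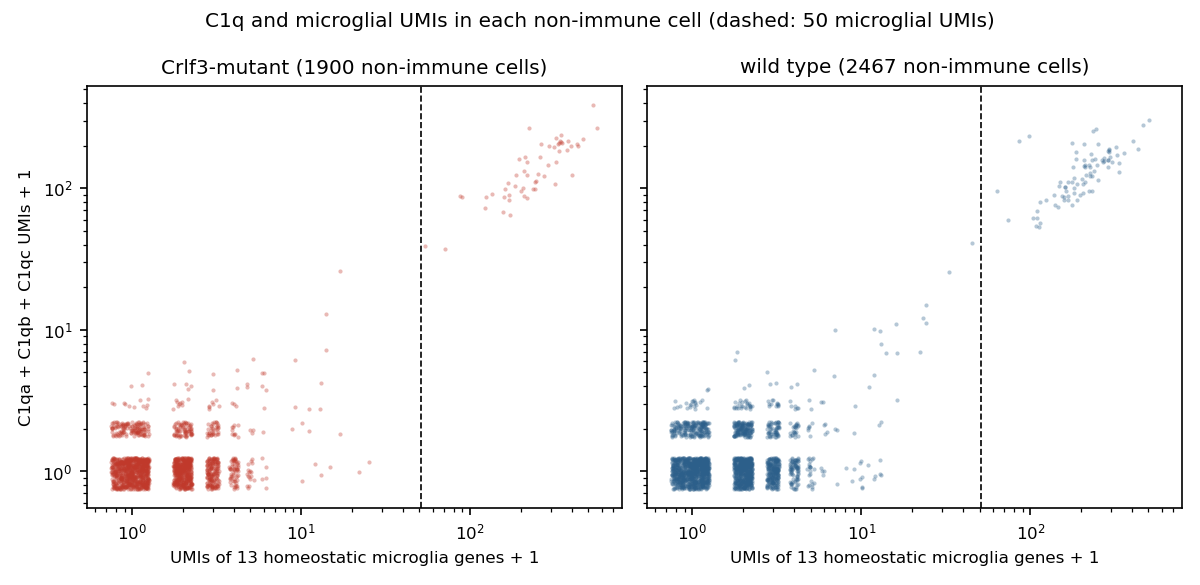
Summed C1q UMIs plus 1 against UMIs of 13 homeostatic microglia genes plus 1 in each non-immune cell, both on log axes, for the Crlf3-mutant library (1900 cells) and the wild-type library (2467 cells); the dashed line marks 50 microglial UMIs. Most cells lie near the origin, and 56 Crlf3-mutant and 86 wild-type cells to the right of the line hold nearly all C1q UMIs.

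The share of holding cells differed between classes and libraries, and so did the C1q level of a class. Astrocytes had 11 such cells of 464 (2.37%) in the Crlf3-mutant and 32 of 766 (4.18%) in the wild-type library, and endothelial cells 9 of 810 (1.11%) and 15 of 824 (1.82%). Neural progenitors had 15 of 91 (16.5%) and 10 of 70 (14.3%). C1q over all astrocytes was 559 CPM in the Crlf3-mutant and 869 CPM in the wild-type library, a ratio of 0.643 (0.609 to 0.679), and the homeostatic microglia genes stood at 0.661 there. The 11 and 32 holding astrocytes held 94.8% and 95.2% of these C1q UMIs. The interval treats each UMI as separate, so it does not cover the spread between these few cells. The same holds below for endothelial cells, with 85.7% and 86.8% in holding cells, and choroid plexus cells, with 96.1% and 89.5%. In endothelial cells C1q was 305 CPM and 525 CPM, a ratio of 0.581 (0.543 to 0.621), with the homeostatic genes at 0.586. In choroid plexus cells, where holding cells were 8 of 160 (5.0%) and 13 of 453 (2.87%), C1q was 401 CPM and 336 CPM, a ratio of 1.19 (1.1 to 1.29), with the homeostatic genes at 1.22. The direction in choroid plexus cells was not stable: C1qa stood at 1.24 over all cells, 2.23 among cells that had Y-linked transcripts and no Xist, and 0.961 when doublets were kept. Choroid plexus cells with Y-linked transcripts and no Xist numbered 76 in the Crlf3-mutant and 216 in the wild-type library. Only 2 and 5 had the reverse, so this class had too few such cells for a ratio.

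Over 6 classes with at least 100 cells in each library, 23 pairs of a member and a class were measured, of which 10 were at least 1.5 times lower and 0 at least 1.5 times higher in the Crlf3-mutant library. All 10 were C1q chains in non-immune cells. In astrocytes they were 2 of 3 measured members, where 0.939% of all measured genes were lower by that much and 1.02% were apart either way. In endothelial cells they were 3 of 3, with 0.418% of genes lower and 0.446% apart. In mural cells they were 3 of 4, with 3.73% lower and 8.66% apart, and in neuroblasts 2 of 4, with 0.995% lower and 1.64% apart. In choroid plexus cells they were 0 of 3, with 0.342% lower and 0.837% apart. The 3 chains lay in the same holding cells and are not separate counts.

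Without the holding cells no C1q chain reached the measuring minimum in these non-immune classes, so none could be counted there. The 8 pairs still measured were the 6 of microglia and Serping1 in mural cells and neuroblasts, and 0 of these were 1.5 times apart. Of all measured genes, 0.506% were then apart in astrocytes, 0.0844% in endothelial cells, 8.04% in mural cells, 1.07% in choroid plexus cells and 1.84% in neuroblasts. The remaining C1q level was 30.5 CPM in Crlf3-mutant and 45.6 CPM in wild-type astrocytes, a ratio of 0.669 (0.522 to 0.853). In endothelial cells it was 44.9 CPM and 72.4 CPM, a ratio of 0.620 (0.515 to 0.745), and in choroid plexus cells 17.2 CPM and 37.3 CPM, a ratio of 0.460 (0.318 to 0.651). All 3 ratios lay below 1, and across the 8 classes the level spanned 14.3 to 58.7 CPM in the Crlf3-mutant and 29.0 to 72.4 CPM in the wild-type library. The ratio of the homeostatic microglia genes in the same cells was 0.90 in astrocytes, 0.701 in endothelial cells and 0.622 in choroid plexus cells. Their part in the C1q ratios was not tested.

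In mural cells the C1q ratio of 0.348 (0.30 to 0.404) rested on 3 cells, since 226 of 267 Crlf3-mutant UMIs lay in 1 cell and 511 of 546 wild-type UMIs in 2 cells. Without them the ratio was 0.819 (0.509 to 1.32). In astrocytes the direction depended on the cells used: the ratio was 1.24 among cells with Xist and no Y-linked transcript and 0.342 among cells with Y-linked transcripts and no Xist.

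**Figure D4:**
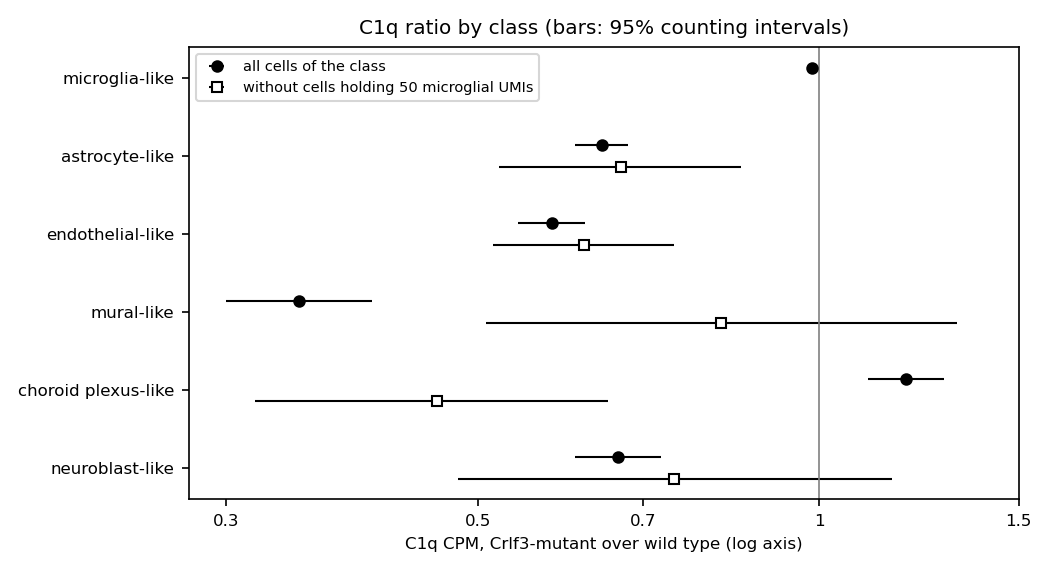
Ratio of summed C1q CPM, Crlf3-mutant over wild type (log axis), in each class, over all cells and without cells holding at least 50 microglial UMIs, with bars for 95% counting intervals. The bars treat each UMI as separate and do not cover the spread between cells. Over all cells of the non-immune classes most C1q UMIs lay in few cells. Microglia lie at 0.986, astrocytes at 0.643 over all cells and 0.669 without holding cells, endothelial cells at 0.581 and 0.620, and mural cells at 0.348 and 0.819.

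Serping1, which encodes C1 inhibitor (ENSMUSG00000023224, chromosome 2, 84765387 to 84775444), was highest in fibroblasts, mural cells, neuroblasts and ependymal cells. It totalled 642 UMIs in the Crlf3-mutant and 799 UMIs in the wild-type library, with 1 and 2 of them in microglia. Fibroblasts had the highest level, 1062 CPM in 13 Crlf3-mutant and 1335 CPM in 30 wild-type cells. Mural cells, the pericytes and smooth muscle of vessels, had 243 CPM in the Crlf3-mutant and 258 CPM in the wild-type library, a ratio of 0.944 (0.749 to 1.19). The ratio was 1.86 in mural cells with Y-linked transcripts and no Xist (83 and 16 UMIs). Neuroblasts had 132 CPM and 139 CPM, a ratio of 0.954 (0.774 to 1.18). Ependymal cells had 41.0 CPM from 9 UMIs in 22 Crlf3-mutant cells and 76.7 CPM from 43 UMIs in 55 wild-type cells. Endothelial cells held 0 Serping1 UMIs among 810 Crlf3-mutant and 2 among 824 wild-type cells.

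Within these classes Serping1 belonged to particular clusters. The mural cluster led by the smooth muscle genes Acta2, Tagln and Myh11 had 589 CPM in 30 Crlf3-mutant cells and 632 CPM in 21 wild-type cells, a ratio of 0.932 (0.722 to 1.21). The mural cluster led by Vtn and Kcnj8, genes of pericytes, had 55.8 CPM in 139 Crlf3-mutant cells and 75.5 CPM in 112 wild-type cells, a ratio of 0.739 (0.412 to 1.32). The Acta2-led cells had the higher level in both libraries, with intervals that did not meet.

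Neuroblasts were also split. The cluster led by Neurod1 and Igfbpl1, genes of newborn granule neurons, had 157 CPM in 141 Crlf3-mutant cells and 156 CPM in 116 wild-type cells, a ratio of 1.01 (0.816 to 1.24). The cluster led by Dlx6os1, with the interneuron genes Dlx1 and Dlx2, had 0 Serping1 UMIs in 30 Crlf3-mutant and 0 in 20 wild-type cells, which allows up to 11.2 CPM and 24.9 CPM by the limit of 3 counts. Neural progenitors had 38.4 CPM and 41.9 CPM, and astrocytes 3.40 CPM and 3.59 CPM. Among fibroblasts the Apod-led cluster had 1487 CPM in 9 Crlf3-mutant and 1460 CPM in 10 wild-type cells. The Mgp-led cluster had 446 CPM in 4 Crlf3-mutant and 1277 CPM in 20 wild-type cells, a value that describes 4 cells on one side.

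**Figure D5:**
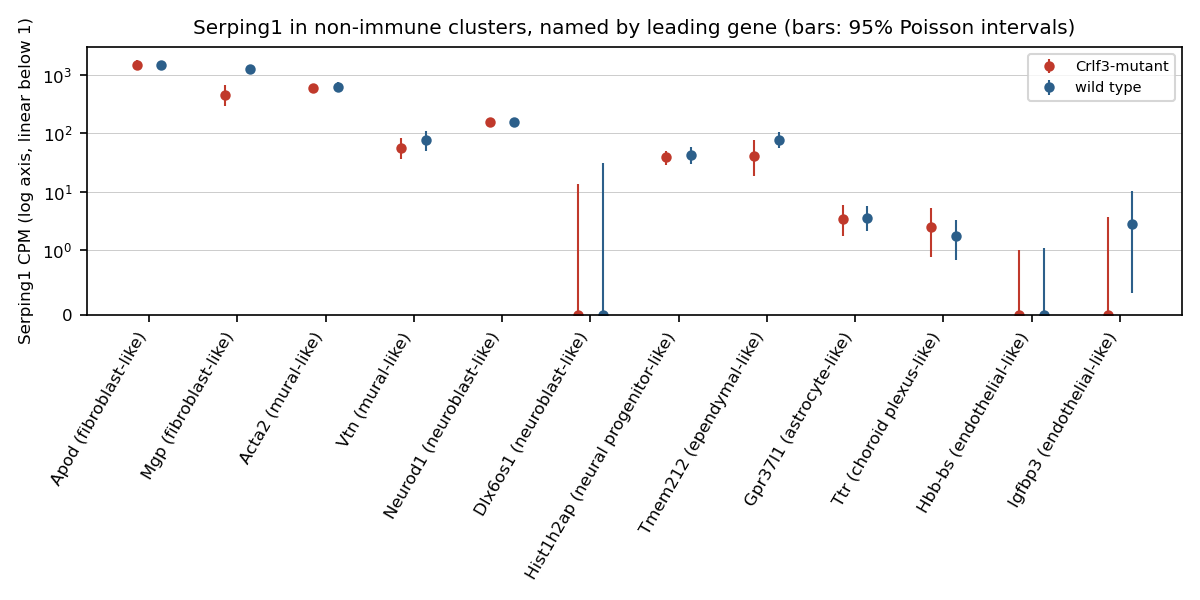
Serping1 CPM (log axis, linear below 1) in non-immune clusters named by their leading gene, in the Crlf3-mutant and the wild-type library, with bars for 95% Poisson intervals. The Apod-led fibroblasts lie at 1487 and 1460 CPM, the Acta2-led mural cells at 589 and 632 CPM, the Neurod1-led neuroblasts at 157 and 156 CPM, and the Dlx6os1-led neuroblasts at 0 in both libraries.

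A list of 41 other complement genes, all matched, gave the wider pathway: 18 components of activation and the terminal pathway, 10 regulators and 13 receptors and partners. In microglia 9 of the 41 were measured and 0 were 1.5 times apart, where 0.123% of all measured genes were. The 9 had a median log2 ratio of 0.05, against 0.01 over all genes. Itgb2, the beta chain that pairs with Itgam, had 287 CPM in Crlf3-mutant and 272 CPM in wild-type microglia, a ratio of 1.06 (1.02 to 1.09). Mertk, a receptor for engulfing dying cells, had 460 CPM and 427 CPM, a ratio of 1.08 (1.05 to 1.11). Itgam and its partner Itgb2 stood at nearly the same ratio in microglia.

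In astrocytes 9 of the 41 were measured and 0 were 1.5 times apart, where 1.02% of all measured genes were. Clu, clusterin, which restrains the terminal complex, had 11970 CPM in Crlf3-mutant and 10185 CPM in wild-type astrocytes, a ratio of 1.18 (1.16 to 1.19). Cr1l, the rodent regulator known as Crry, had 62.4 CPM and 50.1 CPM, a ratio of 1.24 (1.03 to 1.5). Sirpa, the receptor for Cd47, was lower at 217 CPM and 254 CPM, a ratio of 0.852 (0.777 to 0.934), and Lrp1, an endocytic receptor, at 209 CPM and 242 CPM, a ratio of 0.864 (0.786 to 0.949). In endothelial cells 7 were measured and 0 were apart, against 0.446% of all measured genes. Cd47, a signal that restrains engulfment, had 176 CPM there in the Crlf3-mutant and 154 CPM in the wild-type library. The ratio was 1.14 (1.02 to 1.26). In choroid plexus cells 6 were measured and 0 were apart, against 0.837% of all measured genes. Cd59a, an inhibitor of the membrane attack complex, had 191 CPM and 209 CPM there. In neuroblasts 5 were measured and 0 were apart, against 1.64% of all measured genes. Sez6, a neuronal complement regulator, had 72.8 CPM and 105 CPM there, a ratio of 0.693 (0.534 to 0.899).

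In mural cells 10 of the 41 were measured and 1 was apart, where 8.66% of all measured genes were. This was Clu, with 10 UMIs (13.9 CPM) in the Crlf3-mutant and 151 UMIs (295 CPM) in the wild-type library. Of those 151 UMIs, 137 lay in 2 wild-type cells. The other 9 measured genes were within 1.5 times.

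Over 9 classes in both libraries (18 points, which share libraries), the genes whose log2(CPM + 10) followed the members most closely among 8183 genes were ranked by Pearson's r, as a description. For C1qa these were Fcer1g (0.996), Aif1 and Tyrobp, and for C1qb Fcer1g (0.994), Tyrobp and Spi1. For C1qc they were Spi1 (0.995), Csf1r and Fcer1g. C3ar1 was followed by Themis2 (0.991), Gm5086 and Clec4a2, C5ar1 by Ebi3 (0.985), Adgre1 and Alox5, and Itgam by Siglech (0.982), Bin2 and Lpcat2. For Serping1 they were Uchl1 (0.936), Rbm24 and Meg3, but fibroblasts, its highest class, had fewer than 20 Crlf3-mutant cells and were not among the 9. C3 and C4b stayed under 50 CPM in these classes in at least 1 library, so the genes ranked for them are not given.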

How the data were processed

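Hippocampal cells of 1 Crlf3-mutant and 1 wild-type pool were profiled with a droplet 5′ single-cell kit. The deposited values are raw UMI counts per gene and cell, made with Cell Ranger 6.1.1 on an mm10 reference per the labels' protocols; the submitters' processing notes also name Partek without a version. Filters required 500 genes and 1000 UMIs a cell, with no more than 10% of UMIs from mitochondrial genes, and doublets marked by Scrublet (expected rate 0.06) were removed, 78 of 5353 Crlf3-mutant cells and 137 of 7246 wild-type cells. Cells were clustered with scanpy 1.11.5 and leidenalg 0.10.2 (2000 variable genes, 30 components, 15 neighbours, Leiden resolution 1.0, seed 1) without the 9 members, Crlf3 and sex-linked genes. A cluster was named when its marker score reached 0.45 or 4 of its markers were among its top 10 genes, with at least 3 detected; this scoring was set after the files were read. Counts were summed per class and library and divided by the class total to give CPM. Levels carry exact Poisson intervals, shares exact Clopper-Pearson intervals and ratios exact conditional binomial intervals; all cover counting error only, and the limit for a count of 0 is 3 counts. There was no test, since each genotype is 1 library. All 9 members are named in the text, with up to 4 genes per class of a list of 41 other complement genes, by largest absolute log2 ratio, and 3 genes most like each member; some values are not reported here. The members and lists were chosen with earlier results of these data known, and genes named for another reason, such as those that lead clusters, were picked after values were seen. Other cell filters, clusterings, depths, scalings and cell subsets were tried as alternatives, and the ratio calculation was checked on simulated counts.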

Additional observations from a re-analysis of the deposited data

How the results depend on the processing

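Of 79 recomputed values of the 6 main results, 55 stayed within the counting interval or within 1.5 times of the count; of 275 for single members, 161 did. Of the recomputed ratios, 5 of 64 main ones and 33 of 275 for single members lay on the other side of 1; 1 and 13 of these turned a ratio that was at least 1.5 times from 1. The C1q ratio in microglia was 0.970 at 2000 UMIs a cell, 0.967 as a mean of per-cell CPM, 0.978 with median-of-ratios size factors, 0.975 in cells with Xist only and 1.01 in cells with Y-linked transcripts only. In astrocytes it was 0.740 without doublet removal, 0.866 with a class given to each cell by marker scores, 0.581 at 2000 UMIs a cell, 0.543 as a mean of per-cell CPM, 0.342 in Y-linked cells and, reversed, 1.24 in Xist cells, where C1qa was at 1.13, C1qb at 1.45 and C1qc at 1.15. In endothelial cells it was 0.683 without doublet removal, 0.750 with marker scores, 0.834 in Xist cells, 0.435 in Y-linked cells and 0.735 without cells holding 20 microglial UMIs. In Y-linked cells C4b stood at 0.458 in astrocytes and Serping1 at 1.86 in mural cells. Of pairs of a member and a class, 10 of 23 were at least 1.5 times apart. This was 0 of 17 with marker scores, 6 of 20 in Xist cells and 16 of 23 in Y-linked cells. It was 0 of 8 without cells holding 50 and 0 of 8 without cells holding 20 microglial UMIs, and 21 of 43 with no filter on low counts. The share of all genes that far apart was computed only for the main setting and without cells holding 50 microglial UMIs. The other counts have no such share beside them and are not results about the members. In mural cells, where C1q rests on 3 cells, C1qa, C1qb and C1qc turned to 4.16, 4.40 and 7.91 under the stricter cell filter and to 14.0, 7.97 and 27.2 in Y-linked cells, and C1qc to 1.22 with marker scores and 1.30 without cells holding 50 or 20 microglial UMIs. In neuroblasts C1qa, C1qb and C1qc were 2.07, 1.40 and 3.0 with marker scores and 0.313, 0.295 and 0.261 without doublet removal. In choroid plexus cells C1qa, C1qb and C1qc spanned 0.406 to 2.23, 0.487 to 2.37 and 0.491 to 2.24. The cause of these changes was not tested. Counting the Nrgn-led cluster as microglia, an alternative chosen after seeing the data, left the count at 10 of 23. At Leiden resolution 0.5 the Neurod1-led neuroblasts joined the neural progenitors in an unnamed cluster, and without doublet removal they stayed unnamed, so neuroblasts were then the Dlx6os1-led cluster alone. No paired analysis was possible because each genotype is 1 library. Depth limits C3 and C4b most, with at most 35 and 141 UMIs in a library.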

Other observations

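Some small immune clusters held complement transcripts that belong in no comparison above. The S100a9-led cluster had 385 C1q UMIs (3643 CPM) in 17 Crlf3-mutant cells and 1332 UMIs (14535 CPM) in 16 wild-type cells; 382 of the Crlf3-mutant UMIs lay in 2 cells. There were 1.88 and 3.45 C1q UMIs per UMI of the homeostatic microglia genes. C3ar1 in that cluster had 180 CPM and 306 CPM. Among lymphocytes 230 of 231 Crlf3-mutant C1q UMIs lay in 2 of 17 cells, and the wild-type lymphocytes held 8 C1q UMIs in 5 of 19 cells. Border macrophages also carried transcripts of early and alternative pathway components: C2, the partner of C4 in the C3 convertase, had 81.3 CPM in Crlf3-mutant and 108 CPM in wild-type cells, and Cfp, which encodes properdin, 81.3 CPM and 43.7 CPM. In ependymal cells Hc, which encodes C5, had 0 UMIs in 22 Crlf3-mutant and 17 UMIs in 55 wild-type cells.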
